A study of Mus musculus with 4 samples.

Results

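Trh and Pdyn are 2 genes that each encode the precursor of a neuropeptide, and they were taken by symbol from the 1593 genes of the authors' deposited table, in which each has 1 row. RNA was sequenced from 46C mouse embryonic stem cells, a line with a green fluorescent reporter at the neural gene Sox1. All cultures received 1 µM PD0325901, which blocks the kinase MEK, in serum medium for 24 h. The PD group (2 libraries) had no other compound, and the PC group (2 libraries) was also given CID755673, an inhibitor of protein kinase D; the labels state no dose for it. There was therefore no group without PD0325901. No label tells if both libraries of a group stem from different cultures, and the p-values below reflect variation among the 4 libraries alone, possibly of technical origin. The table compares PC with PD and holds genes with a change of at least 2-fold. Both genes were chosen on that comparison, so their levels and differences are given as a description, without a test. The identity of the cells could be checked only in part: Pou5f1, Nanog and Sox2 are not analysed here, while 3 other genes of pluripotent cells, picked after their values were seen, had reads in every library and lower values in PC. Utf1 had 6644 and 7460 normalized reads in PD and 1787 and 1894 in PC, Dnmt3l 8362 and 8847 against 2522 and 2422, and Lin28a 8337 and 8075 against 3902 and 3659. Both PC libraries were below both PD libraries for 61.5% of the genes of the table, so nothing is read from the lower values of these 3 genes. Their part in the values of Trh and Pdyn was not tested.

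A neuropeptide is made as a longer precursor that enters the secretory pathway. Prohormone convertases cut the precursor at pairs of basic residues, carboxypeptidases trim the ends, and the products are stored in dense-core vesicles until release. Trh encodes the precursor of thyrotropin-releasing hormone, the hypothalamic peptide that drives release of thyrotropin from the pituitary. The hormone is cut out as glutamine, histidine, proline and glycine, after which the glutamine is closed to pyroglutamate and the glycine is turned into an amide. Pdyn encodes prodynorphin, the precursor of the dynorphins and neoendorphins, opioid peptides that act mainly on the kappa opioid receptor and begin with the sequence of leucine-enkephalin.

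The peptides that each transcript encodes can be read from its coding sequence. Trh (ENSMUSG00000005892) lies on the minus strand of chromosome 6 at 92242061 to 92244650 in GRCm38, with 3 exons and a coding sequence of 256 codons in the GENCODE M21 model. It holds 5 in-frame copies of the hormone unit, all in exon 3 and each with a basic pair on both sides. They are shown because they define what the transcript produces, with the bases of the hormone unit in capitals and the basic pairs in lower case.
Trh unit 1: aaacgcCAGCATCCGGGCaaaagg
Trh unit 2: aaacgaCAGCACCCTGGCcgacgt
Trh unit 3: aagcggCAGCACCCTGGCaggcga
Trh unit 4: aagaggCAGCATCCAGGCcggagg
Trh unit 5: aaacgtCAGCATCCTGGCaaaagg
The units start at coding bases 229, 325, 460, 514 and 607. Their capitals are spelled in 4 ways, and units 2 and 3 share 1 spelling.

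Pdyn (ENSMUSG00000027400) lies on the minus strand of chromosome 2 at 129686565 to 129699844 in GRCm38, and its main model has 4 exons and 248 codons. Its coding sequence holds 3 leucine-enkephalin cores, all in exon 4, shown with the core in capitals after the basic pair.
Pdyn core 1: aaacgcTATGGCGGCTTTTTG
Pdyn core 2: aaacgcTATGGGGGCTTCCTG
Pdyn core 3: aagcgcTATGGTGGTTTCCTG
The cores start at coding bases 496, 604 and 661, and each is spelled differently. In GENCODE M21 no other annotated gene overlaps either gene, so reads of an overlapping partner do not enter their counts in that annotation. Which annotation the authors counted on is not stated in the sources used here.

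Trh was the more abundant transcript and had the larger difference. Its level was 5617 and 6847 normalized reads in PD replicates 1 and 2, and 394 and 413 in PC replicates 1 and 2. Both PD libraries were thus high and both PC libraries low, with no overlap between the groups. In recovered reads, that is the deposited value turned back into whole reads, these were 5793, 7471, 476 and 347. The mean was 6232 ± 869.5 (SD, n = 2) in PD and 404 ± 13.0 (SD, n = 2) in PC, so the PC mean was 6.48% of the PD mean, a 15.4-fold ratio. On the log2(normalized reads + 1) scale the difference was -3.94, with an SD of 0.20 in PD and 0.05 in PC. Setting the lowest PD library against the highest PC library gave a ratio of 13.6, and the highest PD against the lowest PC library gave 17.4.

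Pdyn was far less abundant. It had 133 and 134 normalized reads in PD replicates 1 and 2, and 25.7 and 16.7 in PC replicates 1 and 2, from 137, 146, 31 and 14 recovered reads. Here too both PC libraries lay below both PD libraries. The mean was 133 ± 0.68 (SD, n = 2) in PD and 21.2 ± 6.38 (SD, n = 2) in PC, so PC held 15.9% of the PD mean, a 6.30-fold ratio. The log2 difference was -2.63, with an SD of 0.01 in PD and 0.42 in PC. The ratio of PD to PC libraries ran from 5.17 to 8.03, a range that lies below that of Trh. Both PC libraries were below both PD libraries for 61.5% of the genes of the table, the groups did not overlap in either direction for 99.7%, and the 2 genes came from that comparison, so nothing is read from their lack of overlap. In bulk RNA, fewer cells that express a gene and less of its RNA per cell cannot be told apart.

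The spread of the replicates was set against counting error. The 95% exact Poisson intervals, which cover counting error only, were 5474 to 5764 normalized reads for Trh in PD replicate 1 and 6693 to 7004 in PD replicate 2. These do not overlap, so the PD libraries differed for Trh by more than the counting of reads, with replicate 2 at 1.22 times replicate 1. In PC the Trh intervals overlapped, at 360 to 431 and 370 to 459. For Pdyn the PD intervals nearly coincided, at 112 to 157 and 113 to 157. The PC intervals of Pdyn, 17.5 to 36.5 and 9.11 to 27.9, also overlapped, so with 31 and 14 reads a difference between these libraries was not detectable at this depth.

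**Figure D1:**
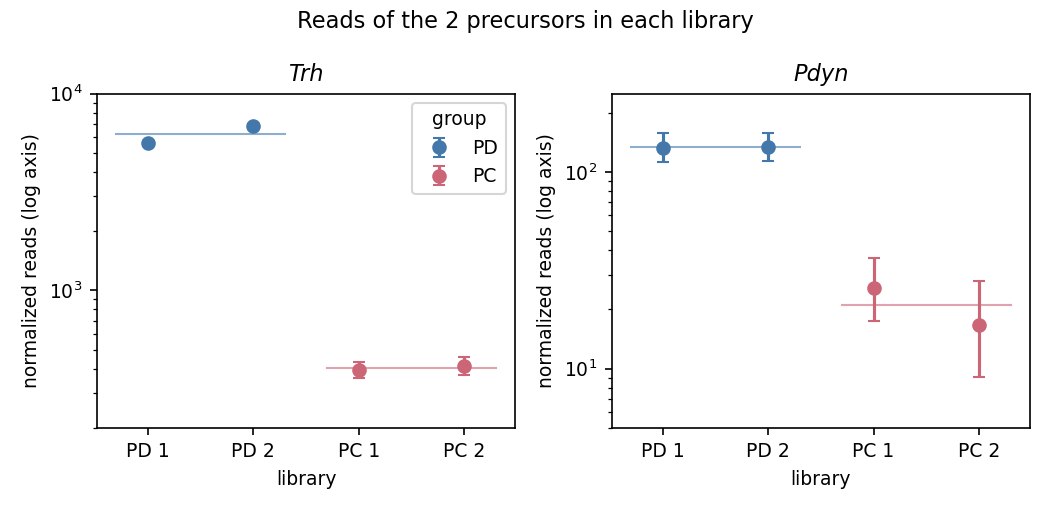
Normalized reads of Trh (left) and Pdyn (right) in each library, on log axes with different ranges; points are libraries, bars are 95% exact Poisson intervals and lines are group means. Trh lies between 5617 and 6847 in PD and at 394 and 413 in PC, and Pdyn at 133 and 134 in PD and at 25.7 and 16.7 in PC.

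Levels of the 2 genes can be compared only per length. Over the union of annotated exons, 1384 bases for Trh and 2887 for Pdyn, where a model with a retained intron adds to the length, Trh had 4503 ± 628 (SD, n = 2) normalized reads per kb in PD and 292 ± 9.42 (SD, n = 2) in PC. Pdyn had 46.2 ± 0.24 and 7.33 ± 2.21 on the same scale (SD, n = 2). Trh was thus 97.5 times as abundant as Pdyn per kb in PD and 39.8 times in PC. Library by library the ratio was 88.2 and 107 in PD and 32.0 and 51.7 in PC, so the ratio was lower in both PC libraries. Among the 1589 genes of the table with a length, Trh stood 7th per kb in PD and 104th in PC, and Pdyn 548th and 1115th. Of reads on the genes of the table, Trh took 0.917% and 1.09% in PD but 0.079% and 0.080% in PC.

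By the size of its fall on the log2 scale, Trh stood 4th and Pdyn 32nd of the 1413 genes with reads in all 4 libraries. The genes next to Pdyn in the order of falls were Gm42927 at -2.63 and Wdfy4 at -2.63. By the authors' p, Trh ranked 1st and Pdyn 274th of the 1593 genes of the deposited table. The number of 31432 genes tested was derived from the values of Trh, taking it as 1st of all genes tested. The rank of Pdyn among all genes tested was not derived. The authors' false discovery rates were 2.58e-250 for Trh and 6.68e-12 for Pdyn. Those are the values that placed the genes in the table.

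**Figure D2:**
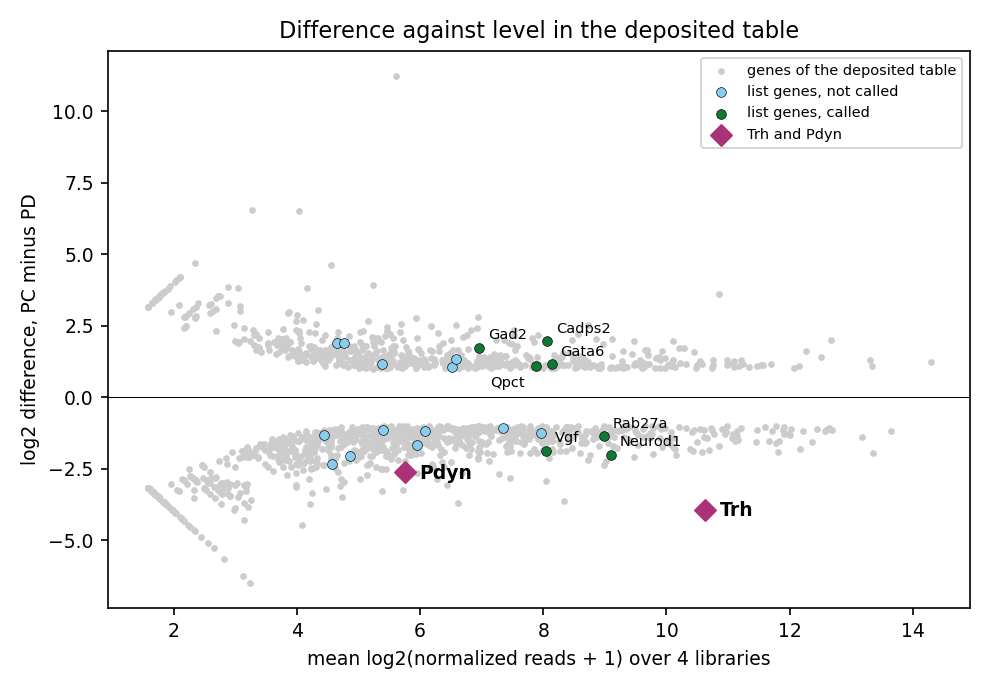
Log2 difference, PC minus PD, against the mean log2(normalized reads + 1) of the 4 libraries for the 1593 genes of the deposited table; diamonds are Trh and Pdyn, and circles are genes of the pathway and marker lists, dark where limma called them. The empty band around 0 is the fold limit of the table, with Trh at -3.94 and Pdyn at -2.63.

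The genes whose values ran most like those of Trh and Pdyn were found by the root mean square difference of log2 values, each centred on the gene's own mean, over the 4 libraries and among 829 other genes with a mean of at least 50 normalized reads. A likeness over 4 libraries rests mostly on the size of the group difference. For Trh the nearest was Gm12543, an annotated gene without a known role, at a distance of 0.17, with 352 ± 2.62 normalized reads in PD and 26.3 ± 3.20 in PC (SD, n = 2). Then came Ucma, which encodes a cartilage matrix protein, at 0.36, Them5, a thioesterase gene, also at 0.36, the glucose transporter gene Slc5a1 at 0.48 and the nucleotide phosphodiesterase gene Enpp3 at 0.50. None of these 5 reached the log2 difference of Trh, their differences running from -3.70 for Gm12543 to -2.95 for Enpp3.

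Pdyn ran closest to Fgf5, a growth factor of the early epiblast, at a distance of 0.03. Fgf5 had 395 ± 9.58 normalized reads in PD and 62.1 ± 18.8 in PC (SD, n = 2), a log2 difference of -2.68. The transcript Fer1l4 followed at 0.10, the adaptor gene Cass4 at 0.13, the leukotriene B4 receptor gene Ltb4r2 at 0.16 and CT010444.3, an annotated gene without a known role, at 0.19. Their log2 differences lay between -2.50 and -2.44. Trh and Pdyn were 0.70 apart: Pdyn was the 11th nearest gene to Trh, whereas Trh was the 258th nearest to Pdyn.

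**Figure D3:**
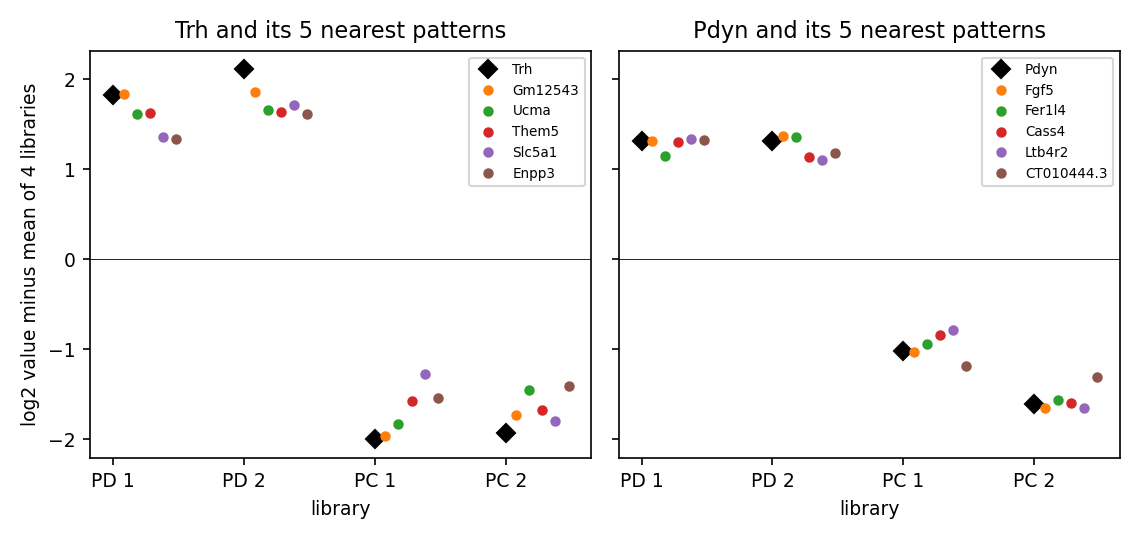
Log2 value in each library minus the gene's mean over the 4 libraries, for Trh (left) and Pdyn (right) as diamonds and the 5 genes nearest to each as dots, shifted sideways for legibility. Trh lies farther from 0 than its 5 neighbours in PD replicate 2 and in both PC libraries, while Fgf5 runs beside Pdyn, at a distance of 0.03.

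The other genes of a list of secreted peptide precursors did not share 1 direction. Of 78 such genes besides Trh and Pdyn, 3 were in the table, or 3.85%, where the table holds 5.07% of the genes tested. limma with Benjamini-Hochberg adjustment to 31432 genes called 0 of the 3, against 31.1% of the genes of the table. Genes outside the table had no p here and were ranked as larger, which can raise the adjusted p. At an unadjusted p under 0.05 limma passed 2 of the 3. The authors' deposited false discovery rates were under 0.05 for 2, as for 1119 of the 1593 genes of the table. Edn1, the precursor of the vasoconstrictor endothelin, had 218 and 253 normalized reads in PD and 96.9 and 127 in PC. Npb, the precursor of neuropeptide B, went the other way, with 15.5 and 9.16 in PD and 49.7 and 45.2 in PC. Spx, the precursor of spexin, had 5.82 and 28.4 in PD and 63.8 and 41.6 in PC, with a wide spread in PD. Vgf, whose protein is also cut into peptides, was lower in PC and called, and is counted below with the vesicle genes. The precursor genes outside the table, among them Penk, Pomc and Sst, are not analysed here.

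Of 18 genes for enzymes that process precursors, 1 was in the table and it rose. Qpct, the glutaminyl cyclase that can close the pyroglutamate ring of thyrotropin-releasing hormone, had 159 and 164 normalized reads with PD and 351 and 332 with PC. Both PC libraries were thus high, where those of Trh were low. Qpct rose by 1.08 on the log2 scale (SE 0.13, Benjamini-Hochberg adjusted p in limma = 0.03). The call was lost when any 1 of the 4 libraries was left out, as were most calls over the table. Each such fit leaves 1 library in a group. The log2 difference of Qpct then ran from 1.03 to 1.12. The convertase genes Pcsk1 and Pcsk2, the carboxypeptidase gene Cpe and the amidating enzyme gene Pam are not analysed here.

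Of 30 genes of dense-core vesicles and regulated secretion, 4 were in the table, and limma called 3 of them, 2 lower and 1 higher, where it called 31.1% of the table (19.8% lower and 11.2% higher). All 3 calls were lost when any 1 of the 4 libraries was left out, as were most calls over the table. Vgf, a granin-like vesicle protein that is itself cut into peptides, fell from 550 and 467 normalized reads in PD to 148 and 127 in PC. Its log2 difference was -1.88 (SE 0.16, Benjamini-Hochberg adjusted p in limma = 0.014). Rab27a, a small GTPase that docks secretory vesicles, fell from 792 and 828 to 332 and 301 normalized reads, a log2 difference of -1.35 (SE 0.11). Cadps2, which primes dense-core vesicles for release, rose from 152 and 120 to 501 and 554 normalized reads, a log2 difference of 1.96 (SE 0.17). Sytl4, a Rab27 effector, had 46.5 and 23.8 in PD and 16.6 and 9.52 in PC, and missed the threshold (Benjamini-Hochberg adjusted p in limma = 0.95). The median log2 difference of the 4 genes was -1.35, beside -1.17 over all 1593 genes of the table.

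Of 16 genes for receptors of the 2 genes' peptides and for peptidases that break them down, 1 was in the table. Oprd1, the delta opioid receptor, had 69.8 and 55.9 normalized reads in PD and 133 and 128 in PC, so that both PC libraries were higher. It did not pass (Benjamini-Hochberg adjusted p in limma = 0.15). The thyrotropin-releasing hormone receptor gene Trhr, the peptidase gene Trhde and the kappa receptor gene Oprk1 are not analysed here.

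Of 32 genes for factors known to act on Trh or Pdyn in neurons or endocrine cells, 3 were in the table. limma called 0 of them, where it called 31.1% of the table. All 3 passed at an unadjusted p under 0.05 and by the authors' deposited false discovery rates. By those rates 1119 of the 1593 genes of the table passed. Fosl1 and Fosb encode subunits of the AP-1 factor. Fosl1 had 92.1 and 130 normalized reads in PD and 34.8 and 32.1 in PC (Benjamini-Hochberg adjusted p in limma = 0.084), and Fosb 57.2 and 48.6 in PD and 5.80 and 15.5 in PC (adjusted p = 0.22). Nr4a2, an orphan nuclear receptor, had 69.8 and 51.3 in PD and 133 and 172 in PC (Benjamini-Hochberg adjusted p in limma = 0.14). The values of the first pair were lower in PC and those of Nr4a2 higher. The genes of the thyroid hormone receptors, CREB, STAT3 and DREAM (Kcnip3) are not analysed here.

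**Figure D4:**
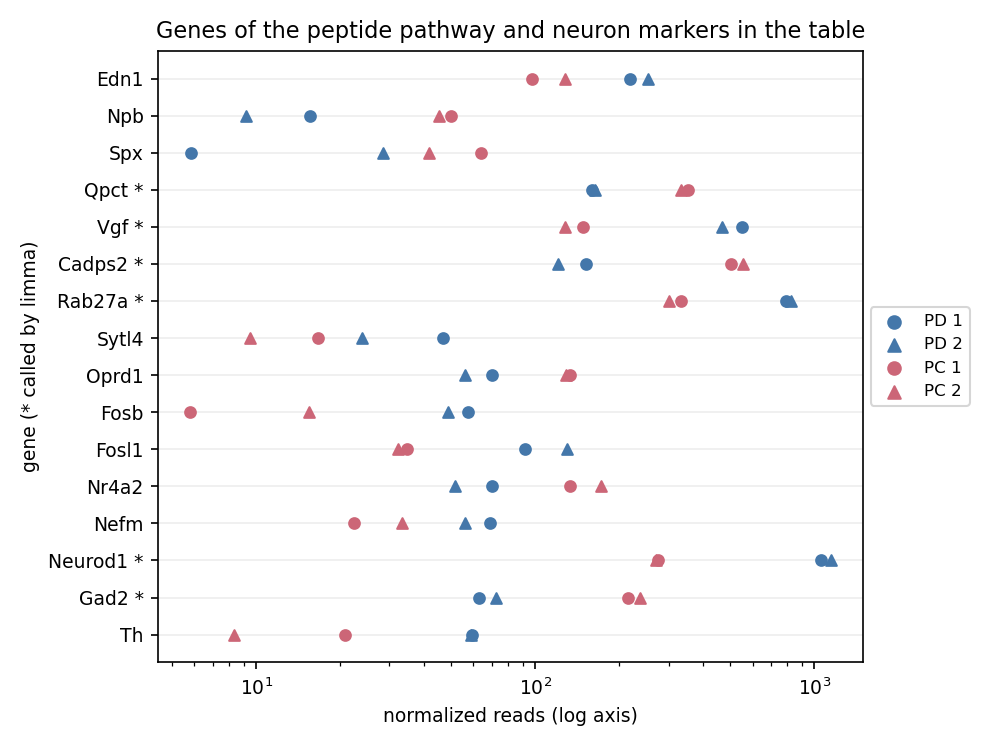
Normalized reads in each library (log axis) for the 16 genes of the peptide pathway lists and of the neuron marker list that the table holds; circles are replicate 1 and triangles replicate 2, and an asterisk marks a call by limma. Vgf, Rab27a and Neurod1 lie lower in PC, and Qpct, Cadps2 and Gad2 higher.

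Neurons are a cell type in which both peptides are known, and their markers did not move one way. Of 24 neuron markers 4 were in the table, 3 with lower and 1 with higher values, where 61.5% of the table was lower. limma called 1 in each direction, where it called 19.8% of the table lower and 11.2% higher. So few genes do not stand apart from those shares. Neurod1, a neuronal transcription factor, fell from 1054 and 1143 normalized reads in PD to 274 and 270 in PC, a log2 difference of -2.01 (SE 0.11, Benjamini-Hochberg adjusted p in limma = 0.012). Gad2, an enzyme of GABA synthesis, rose from 63.0 and 72.4 to 215 and 237, a log2 difference of 1.73 (SE 0.18). Nefm, a neurofilament gene, had 68.8 and 55.9 in PD and 22.4 and 33.3 in PC, and Th, the first enzyme of catecholamine synthesis, 59.2 and 58.7 in PD and 20.7 and 8.33 in PC, and neither passed. Both calls were lost when any 1 of the 4 libraries was left out, as were most calls over the table. Summed over the 4 genes, the level was 1245 and 1330 normalized reads in PD and 533 and 548 in PC, with Neurod1 the main contributor and none of the 4 at 0. The part of neuron-like cells in the values of Trh and Pdyn was not tested.

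Markers of other cell types that such cultures can hold were few in the table. Of 8 neural progenitor markers 0 were in it. Of 10 extra-embryonic endoderm markers 2 were, Gata6 and Sox17, with a summed level of 221 and 210 normalized reads in PD and 466 and 512 in PC, and Gata6 rose (Benjamini-Hochberg adjusted p in limma = 0.04, but 0.062 with a pseudocount of 0.1, and above the threshold without any 1 of the 4 libraries). Col3a1 of fibroblasts had 89.2 and 114 in PD and 38.9 and 48.8 in PC, and Gata3 of trophoblast 380 and 384 in PD and 195 and 133 in PC, and neither passed (Benjamini-Hochberg adjusted p in limma = 0.21 and 0.089). These 2 were each the 1 gene in the table of 8 markers. No marker in the table was at 0 in any library, and the part of these cells in the values of Trh and Pdyn was not tested.

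Over all these lists 20 of 231 genes were in the table, or 8.66%, where the table holds 5.07% of the genes tested. The lists were written with earlier results of these data known, so nothing is read from that share. limma called 7 of the 20, or 35.0%, 4 higher and 3 lower, beside 31.1% of all genes of the table, 11.2% higher and 19.8% lower. None of the 7 kept its call when any 1 of the 4 libraries was left out, while each gene kept its direction. The table admitted its genes by fold and p on these same libraries, so a kept direction is no separate support. Leaving out a library leaves 1 in a group and cost most calls over the table, so the loss is not particular to these genes. Without a trended prior for the spread limma called 0 of the 20, while 19 passed at an unadjusted p under 0.05. So did 1487 of the 1593 genes of the table. The split of calls over the table depends on the scaling. With the authors' size factors it was 179 higher and 316 lower. It became 245 and 233 when libraries were scaled to the same total over the table, which moved the median log2 difference by 0.29. That total covers only genes selected as changed, 61.5% of them lower in PC, so this scaling by itself pulls the split toward balance. Under that scaling the log2 differences of Trh and Pdyn were -3.65 and -2.35.

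The annotations in the authors' deposited table place both genes under hormone activity. Of the 7 other genes with that term 5 had lower (71.4%, beside 61.5% of the table) and 2 higher values in PC, and limma called 2, both lower (28.6%, beside 31.1% of the table called in either direction). One was Vgf, and the other was Crhr2, a receptor of corticotropin-releasing hormone peptides, named after its values were seen, which fell from 260 to 57.0 normalized reads (log2 difference -2.18, Benjamini-Hochberg adjusted p in limma = 0.015). Neither kept its call without any 1 of the 4 libraries. Trh alone of the pair carries the term for neuroactive ligand-receptor interaction, with 38 other genes, 28 lower (73.7%, beside 61.5% of the table) and 10 higher, of which limma called 8 lower (21.1% of the 38, beside 19.8% of the table) and 3 higher (7.89%, beside 11.2%). Pdyn alone carries the term for the neuropeptide signaling pathway, with 6 other genes, 4 lower (66.7%, beside 61.5% of the table) and 2 higher. Of these 6 limma called 0, beside 31.1% of the table. Trh alone carries secretory granule, with 16 other genes, 8 lower (50%, beside 61.5% of the table) and 8 higher. Of these 16 limma called 2 lower (12.5%, beside 19.8% of the table) and 2 higher (12.5%, beside 11.2%). Pdyn alone carries neuropeptide hormone activity, with 2 others, Vgf lower and called and Spx higher and not called. Under opioid peptide activity Pdyn had 0 other genes. The terms were looked up after the values were seen and hold few genes, so nothing is read from these shares.

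Few of the genes next to Trh and Pdyn in the genome were in the table. The nearest protein-coding genes of Trh in GENCODE M21 are Rbsn, Mrps25 and Nr2c2 on the side of lower coordinates, the first of them 27.1 kb away, and Prickle2, Adamts9 and A730049H05Rik on the other. Of these 6 the table holds 1: A730049H05Rik, 572 kb from Trh, had 489 ± 55.1 normalized reads in PD and 235 ± 13.0 in PC (SD, n = 2; Benjamini-Hochberg adjusted p in limma = 0.04), a call lost without any 1 library. Those of Pdyn are Sirpa, F830045P16Rik and Il1b on the side of lower coordinates, the first 54.3 kb away, and Stk35, Tgm3 and Tgm6 on the other. Of these the table holds Tgm3, a transglutaminase gene 313 kb away, with 247 ± 64.8 normalized reads in PD and 119 ± 16.9 in PC (SD, n = 2), which did not pass (Benjamini-Hochberg adjusted p in limma = 0.23). Neighbours outside the table missed its limit on fold or on p, or were not among the genes tested, and their absence does not bound their difference.

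Because both genes were lower in PC, the 250 bases before each RefSeq start site (GRCm38.p6) are shown, 5′ to 3′ on the strand of the gene, with the letters matched by any of 11 motifs in capitals. The Trh window is chr6:92244651-92244900 on the minus strand and the Pdyn window chr2:129699939-129700188 on the minus strand.
Trh promoter: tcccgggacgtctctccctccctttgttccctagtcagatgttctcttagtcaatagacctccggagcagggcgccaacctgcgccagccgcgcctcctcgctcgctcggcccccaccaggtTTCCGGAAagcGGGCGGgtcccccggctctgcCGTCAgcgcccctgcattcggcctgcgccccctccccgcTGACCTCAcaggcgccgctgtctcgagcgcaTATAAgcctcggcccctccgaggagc
Pdyn promoter: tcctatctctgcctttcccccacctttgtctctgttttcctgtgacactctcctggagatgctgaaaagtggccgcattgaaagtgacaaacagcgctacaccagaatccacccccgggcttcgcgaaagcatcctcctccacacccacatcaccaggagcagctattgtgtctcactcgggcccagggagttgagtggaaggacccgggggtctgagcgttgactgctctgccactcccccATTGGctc
The Trh start site is the same in RefSeq and GENCODE M21, whereas the GENCODE model of Pdyn begins 105 bases further downstream, and RefSeq has a second start for Pdyn that is not shown.

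The 2 windows shared no motif of those searched on both strands. The Trh window holds TATAA from 26 to 22 bases before the start, which 22.8% of 32851 windows of the same length hold, and GGGCGG, the GC box of Sp1 and KLF proteins (32.7%). It holds TGACCTCA from 57 to 50 bases before the start (1.94% of windows), within which the nuclear receptor motif AGGTCA (14.0%) matches on the other strand. The core TGACG of the cyclic AMP response element (17.8%) also matches on the other strand, and the ETS core CCGGAA (3952 of the 32851 windows) matches once on each strand, in 2 overlapping places. The Pdyn window holds 1 of the motifs, CCAAT on the other strand from 8 to 4 bases before the start (33.8%). The full cyclic AMP response element TGACGTCA (1.55% of windows), the AP-1 element TGANTCA (6.75%), the STAT element TTCNNNGAA (7.02%) and the octamer ATGCAAAT (1.60%) were in neither window. GC content was 68.8% in the Trh window and 57.2% in the Pdyn window, beside a median of 52.4% over all windows. A match describes letters and not binding, and no binding was measured here.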

How the data were processed

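Total RNA of 4 libraries, taken with Trizol per the labels' protocols, was sequenced. A single table was deposited by the authors, with genes as rows, holding log2 values per library, group means, a log2 fold change, and p-values with false discovery rates. Undoing the log and subtracting 1 gave whole multiples of 1 step per library (100% of values, tolerance 0.001 reads), so the deposited log2 values are log2(reads / size factor + 1). Size factors were 1.03 and 1.09 in PD and 1.21 and 0.841 in PC. Bowtie 0.12.2 and mm9 appear in the submitters' processing notes, without a role. How reads were counted, on which annotation and strand setting, and which test the authors ran is not stated in the sources used here.

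Reads on listed genes ran from 433684 (PC replicate 2) to 683777 (PD replicate 2), and full depth is unknown. Every listed gene has a log2 fold change of at least 1 in size and a p of at most 0.0498.

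limma 3.58.1 (R 4.3.3, trended prior, no replicate block) was fitted to log2(value + 1) of all listed genes with a mean of at least 1. Benjamini-Hochberg adjustment counted 31432 genes as tested by the authors, and calls needed an adjusted p under 0.05. That number is the authors' false discovery rate of Trh over its p, which takes Trh as 1st of all genes tested. Only listed genes had a p here. Genes outside the table were ranked as having a larger p, which can raise the adjusted p. The prior comes from genes selected on these samples. The log scale understates changes of low genes. The script was tested on simulated data. The members and lists were chosen with earlier results of these data known. Named genes were the 2 members, every list gene in the table, the 5 nearest patterns and 3 coding neighbours a side. Others are marked. Gene models came from GENCODE M21 (joined by gene ID, 1589 of 1593 matched) and promoters from RefSeq, both on GRCm38, and no coordinate was converted from mm9. Protein sequences were not used here. Alternatives covered the pseudocount, filter, scaling, prior, block, adjustment and each library left out.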

Additional observations from a re-analysis of the deposited data

How the results depend on the processing

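The log2 difference was recomputed for 34 genes: Trh, Pdyn, the 20 list genes in the table, the 10 genes of nearest pattern and 2 genome neighbours. It reversed in 0 of 354 values under the alternatives run for them, and other genes named are not in this count. All 34 were in the table for a change of at least 2-fold on these same libraries. That selection leaves little room for a reversal, so the count is no separate support. The log2 difference of Trh moved beyond the spread of its libraries only when libraries were scaled to the total over the table, to -3.65, and that of Pdyn under none. Without each library in turn it ran from -4.08 to -3.80 for Trh and from -2.93 to -2.33 for Pdyn.

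Counts of calls moved much more. Over the table limma called 495 genes. The count was 61 and 60 without PD replicates 1 and 2 (1 higher in each, 60 and 59 lower) and 33 without either PC library (33 higher, 0 lower), a fit in which a single remaining library takes its spread from the opposite group, and 1 without a trended prior. It was 1176 with the replicate block, 1536 when adjusted over the genes of the table alone, and 1119 by the authors' false discovery rate. Of the 20 list genes limma called 7. No call was kept with any library left out. Without a trended prior limma called 0, where 19 of the 20 passed at an unadjusted p under 0.05, as did 1487 of the 1593 genes of the table. It called 17 with the replicate block and 19 when adjusted over the table alone, and 18 passed by the authors' false discovery rate. Same-numbered libraries did not deviate together (r = -5.75e-05 across 1593 genes, which are not independent replicates), and the numbers are not stated to pair cultures. Adjustment over the table alone was chosen after seeing the data. The full depth of the libraries is unknown, and with 14 and 31 reads in PC the level of Pdyn there is known only within its counting interval.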
